A study of Mus musculus with 8 samples.

Results

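PGC-1α, a coactivator of genes of mitochondrial energy metabolism, was compared with GFP in C2C12 myotubes that received no deferoxamine (DFO). C2C12 is an established mouse myoblast line, and its cells fuse into multinucleated myotubes when serum is lowered. The series holds 8 Affymetrix mouse expression arrays, and the comparison takes the 4 without DFO by their labels, 2 infected with adenovirus for GFP and 2 with adenovirus for the construct labelled GFP-PGC-1α. The other 4 arrays carry the same viruses with 100 µM DFO, an iron chelator, and serve here for the shared estimate of spread and for asking where the change differed with DFO. All groups share the cell line, infection with an adenovirus, 3 days in medium with 2% dialyzed serum before infection and 3 days after it. The model is 1 cell line that makes PGC-1α from a virus, and per the design text each group has 2 biological duplicates.

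PGC-1α does not bind DNA itself. It docks on nuclear receptors such as the estrogen-related receptors (ERR) and PPARs, and on factors such as NRF1 and GABP, and recruits enzymes that open chromatin and start transcription. In skeletal muscle it is induced by exercise and is known for raising mitochondrial content, fatty acid oxidation and genes of oxidative fibres.

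Values are the deposited intensities of probe sets, the groups of short oligonucleotides that report on a transcript, on a linear scale. Each of 18193 genes was read by the probe set of highest mean over the 8 arrays. Medians of the 8 arrays lay between 59.5 and 62.8 intensity units. Signal near the 5′ end of the beta-actin transcript over that near its 3′ end, which drops as RNA breaks down, was 0.897 to 0.921 on the 4 arrays without DFO and 0.753 to 0.868 on the 4 with it. The median SD of log2 intensity between the 2 arrays of a group, over genes above the median level, was 0.0751 with GFP and 0.0584 with PGC-1α.

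All 12 myotube markers were above the median level of all genes, among them Myog, the differentiation factor myogenin, at 5223 and 5330.2 with GFP and 5296 and 5245 with PGC-1α. Of the 5 osteoblast markers 0 were above that level, of the 8 adipocyte markers 2, and Adipoq, which defines fat cells, read 7.81 and 9.81 with GFP and 23.3 and 4.08 with PGC-1α. Fibroblast markers passed it in 4 of 10 and myoblast and reserve cell markers in 7 of 10. In RNA from whole cultures, fewer cells of a type and less RNA per cell cannot be told apart.

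The targeted gene was Ppargc1a, which encodes PGC-1α. Its probe set of highest mean over the 8 arrays read 28.6 and 37.3 with GFP, where it was the dimmest of the gene's sets, and 7211 and 7036 with PGC-1α. It rose by 7.77 ± 0.55 on the log2 scale, ± being the SE throughout (limma, adjusted p = 0.00315), and the groups did not overlap. None of the other 4 probe sets of the gene rose. One read 73.1 and 71.1 with GFP and 21.2 and 26.7 with PGC-1α and fell by 1.60 ± 0.18 in a fit of every probe set (adjusted p = 0.0216). Its lower PGC-1α value lay under the 21.9 that the absent trp spike-in sets reached at most, so the size of its fall is uncertain. The other 3 gave -0.81, -0.81 and -0.28 on the log2 scale and did not pass (adjusted p = 0.166, 0.141 and 0.643). Where each set lies in the transcript, and whether it lies in the construct, was not analysed here.

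Rises, falls and changes given for a gene are log2 changes, PGC-1α minus GFP, and its array values are intensities. Across all genes, 1770 of 18193 passed limma's test at an adjusted p of 0.05, which is 9.73%. Higher with PGC-1α were 902 genes (4.96%) and lower were 868 (4.77%). Among genes above the median level, which holds for most members of the lists below, the shares were 8.41% higher and 7.64% lower. Rises of at least 2-fold among the called genes numbered 352 (1.93%) and falls 191 (1.05%). Rises of at least 4-fold numbered 71 and falls 29. The median log2 change of all genes was -0.08. Scaling the arrays to their poly-A spike-in probe sets moved it up by 0.18, and then 438 genes were called higher and 70 lower, against 902 and 868. Both PGC-1α arrays lay above both GFP arrays in 21.9% of all genes and below them in 35.1%, and all called genes are among these, so arrays that do not overlap add nothing to a call. List medians less than 0.18 below 0 turned above 0 under that scaling, so they are given without a direction. Where that scaling moved the calls of a list, the rises and falls it gave stand beside the list's counts.

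These counts rest on small groups. Leaving out GFP replicate 1 or 2 left 455 or 709 called genes, leaving out PGC-1α replicate 1 or 2 left 304 or 508, and leaving out either GFP array with DFO left 638. A limma fit of the 4 arrays alone called 0 genes, with 4531 at an unadjusted p under 0.05.

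**Figure D1:**
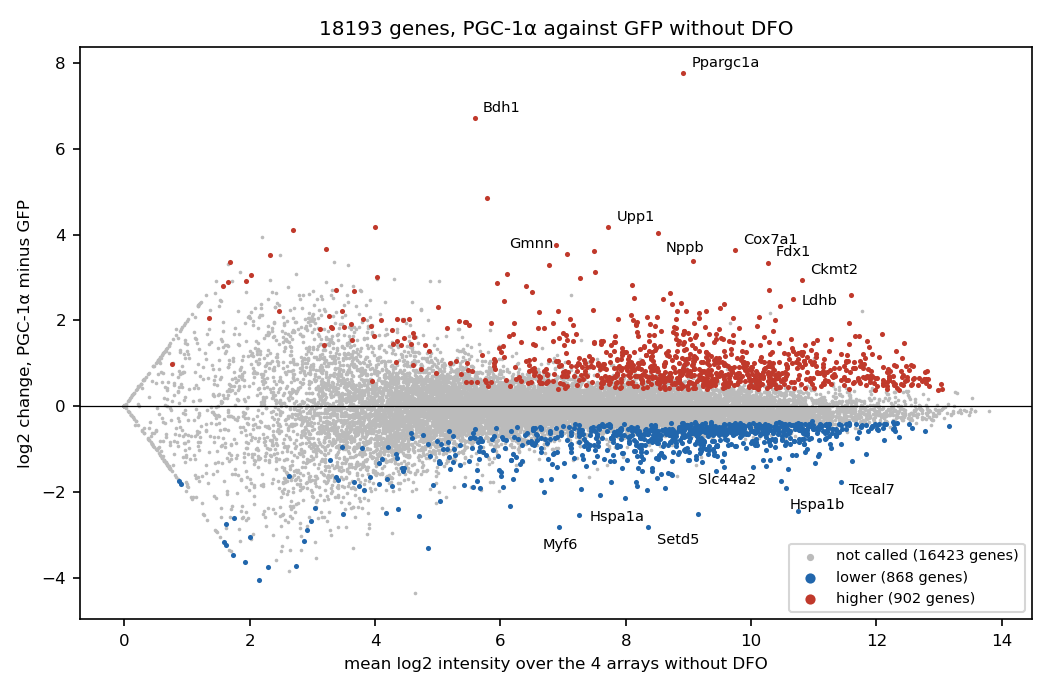
Log2 change with PGC-1α against mean log2 intensity over the 4 arrays without DFO, 1 point a gene, coloured by limma's call at an adjusted p of 0.05. Of the 902 genes called higher and 868 called lower, 84.8% and 80.1% were above the median level over the 8 arrays. Ppargc1a at 7.77 is highest. The fan at the left holds dim genes, where the arrays of a group differ most.

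Some of the largest rises among genes above the median level, after Ppargc1a, were outside energy metabolism. Upp1, uridine phosphorylase, which releases ribose from uridine, read 49.0 and 50.1 with GFP and 907 and 882 with PGC-1α and rose by 4.17 ± 0.08 on the log2 scale (adjusted p = 0.000509). Nppb, the precursor of B-type natriuretic peptide, read 102 and 79.7 with GFP and 1459 and 1488 with PGC-1α and rose by 4.03 ± 0.15 (adjusted p = 0.00168). Tnni3, the cardiac troponin I, read 167 and 169 with GFP and 1703 and 1783 with PGC-1α (log2 change 3.38 ± 0.32), and the neurofilament genes Nefl and Nefm rose by 3.28 and 2.81. The GFP values of Upp1 and Nppb lay under the median level of 125 intensity units, and these genes passed that filter through the arrays with PGC-1α.

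Among the coactivator's partners, the gene of ERRα had the largest change. Esrra, which encodes it, read 239.6 and 225 with GFP and 1004 and 1144 with PGC-1α and rose by 2.21 ± 0.10 (adjusted p = 0.00168). Esrrb, which encodes ERRβ, was dim, at 17.3 and 28.7 with GFP and 71.9 and 103 with PGC-1α, and rose by 1.95 ± 0.31 (adjusted p = 0.0217). The lower GFP value of Esrrb lay under the 21.9 that the absent trp spike-in sets reached at most, so the size of its rise is uncertain. Gabpa, the DNA-binding subunit of GABP, rose from 711 and 739 to 1119.5 and 1148 (log2 change 0.65 ± 0.08). Ppargc1b, the related coactivator PGC-1β, moved the other way, from 644 and 472 to 167 and 138, and fell by 1.86 ± 0.33 (adjusted p = 0.0304). Nrf1 read 124 and 169 with GFP and 192 and 192 with PGC-1α and Ppara 35.6 and 36.5 with GFP and 52.2 and 46.0 with PGC-1α, with log2 changes of 0.41 and 0.44 that did not pass (adjusted p = 0.192 and 0.491). Of 40 coactivators and partner factors measured, 4 rose and 3 fell, shares of 10% and 7.5% (3 and 1 under spike-in scaling). These lay near the shares of all genes above the median level, 8.41% higher and 7.64% lower.

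The binding sequences of these partners were looked for in the promoters of the genes that moved. RefSeq promoters on GRCm38.p6 matched 14368 of the 18193 genes, and the 250 bases before the start were searched on both strands. The windows below come from genes that rose and show 1 match each in capitals: the ERR sequence TNAAGGTCA in Timm8b and Tpm3, the GABP sequence CCGGAAGT or its complement in Sirt3 and Tfam, the NRF1 palindrome in Alas1 and the CREB sequence TGACGTCA in Cycs. Each is written 5′ to 3′ along the gene's strand.
Timm8b, chr9:50603765-50603853, plus strand: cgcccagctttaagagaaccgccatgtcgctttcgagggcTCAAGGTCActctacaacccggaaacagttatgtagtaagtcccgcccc
Tpm3, chr3:90072401-90072469, plus strand: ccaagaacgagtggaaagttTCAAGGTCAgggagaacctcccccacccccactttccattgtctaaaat
Sirt3, chr7:140882348-140882435, minus strand: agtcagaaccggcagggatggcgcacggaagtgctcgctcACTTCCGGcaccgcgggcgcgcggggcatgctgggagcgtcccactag
Tfam, chr10:71238045-71238131, minus strand: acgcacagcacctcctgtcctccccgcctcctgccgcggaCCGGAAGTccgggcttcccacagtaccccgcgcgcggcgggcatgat
Alas1, chr9:106247876-106247965, minus strand: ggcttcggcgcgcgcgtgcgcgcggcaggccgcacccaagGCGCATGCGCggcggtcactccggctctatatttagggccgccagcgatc
Cycs, chr6:50566691-50566778, minus strand: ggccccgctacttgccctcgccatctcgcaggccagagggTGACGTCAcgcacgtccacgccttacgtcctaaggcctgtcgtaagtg

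These genes encode an import chaperone of the intermembrane space (Timm8b), a slow-fibre tropomyosin (Tpm3), a mitochondrial deacetylase (Sirt3), the packaging factor of mitochondrial DNA (Tfam), the first enzyme of haem synthesis (Alas1) and cytochrome c (Cycs). Their log2 rises were 1.01 ± 0.10, 0.87 ± 0.10, 1.73 ± 0.13, 0.58 ± 0.08, 1.86 ± 0.09 and 0.82 ± 0.12. The ERR sequence stood in 6 of 768 genes called higher (0.781%) and 7 of 693 called lower (1.01%), against 1.11% of all genes with a promoter. Of all genes above the median level it stood in 0.772%. Among called genes above that level the ERR sequence stood in 0.613% of those higher and 0.707% of those lower. The GABP sequence stood in 7.03% of genes called higher, 3.61% of those called lower and 4.98% of all, and in 7.21% of all genes above the median level. Among called genes above that level it stood in 7.5% of those higher and 4.24% of those lower. The NRF1 palindrome was in 2.08%, 2.02% and 1.43%, and the CREB sequence in 3.65%, 2.45% and 2.51%, in the same order of higher, lower and all. Of all genes above the median level 1.91% held the NRF1 palindrome and 3.09% the CREB sequence. The PPAR direct repeat, which holds an ERR-like core, was in 7 promoters in all and the heat shock element in 70. A match is a run of letters, not a bound site, and sequence further away was not analysed here.

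Most subunits of the respiratory chain were higher with PGC-1α. Complex I, which takes electrons from NADH, had 28 of 34 measured subunits higher, with a median log2 change of 0.66. Ndufb10 read 2460.3 and 2218 with GFP and 6150.3 and 6059 with PGC-1α (log2 change 1.39 ± 0.10, adjusted p = 0.00312) and the core iron-sulfur subunit Ndufs1 read 1925 and 1851 with GFP and 3507 and 3455 with PGC-1α (0.88 ± 0.08). Under spike-in scaling 8 of the subunits passed, all higher. In 32 of the 34 both PGC-1α arrays exceeded both GFP arrays, against 21.9% of all genes. The exception among called subunits was Ndufb4, whose probe set was dim at 54.0 and 42.8 with GFP and 22.1 and 25.9 with PGC-1α and fell by 1.01 ± 0.15 (adjusted p = 0.0195).

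For complexes II and III and their carrier cytochrome c, 13 of 14 genes rose (median 0.86). Sdhd, a membrane anchor of succinate dehydrogenase, read 1922 and 2019 with GFP and 4392 and 4560.2 with PGC-1α (1.18 ± 0.08), and Uqcrfs1, the Rieske iron-sulfur protein, read 2579.9 and 2549.8 with GFP and 5989 and 5910.3 with PGC-1α (1.21 ± 0.08). Cytochrome oxidase rose in 11 of 15 genes (median 0.48). Cox7a1, the heart and muscle form of its subunit, read 243 and 243 with GFP and 3083 and 2968 with PGC-1α and rose by 3.64 ± 0.09 (adjusted p = 0.000633), whereas its general partner Cox7a2 rose by 0.48. Cox6a2, the muscle form of another subunit, read 4357 and 4106 with GFP and 3662 and 3785 with PGC-1α, a log2 change of -0.18 that did not pass (adjusted p = 0.231), while the general form Cox6a1 rose by 0.63. ATP synthase rose in 10 of 16 (median 0.53). Atp5g1, of the membrane ring, read 3567 and 3778 with GFP and 7930.2 and 7971 with PGC-1α (1.11 ± 0.08), although the mean over its probe sets was lower with PGC-1α, and the catalytic subunit gene Atp5b had a log2 change of 0.33 (adjusted p = 0.056). Under spike-in scaling 9, 3 and 3 genes of the 3 groups passed, all higher.

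Factors that assemble these complexes rose in about the same number as did not pass. Of 46 assembly factors measured 24 were higher and 0 lower (16 and 0 under spike-in scaling), with a median of 0.67 beside -0.08 for all genes. Sco2, which delivers copper to cytochrome oxidase, read 355 and 310.2 with GFP and 1750.0 and 1724 with PGC-1α and rose by 2.39 ± 0.12 (adjusted p = 0.00197). The complex I factors Ndufaf5 and Ndufaf2 rose by 1.66 ± 0.11 and 1.65 ± 0.13, and Atpaf2, a chaperone of the ATP synthase head, by 1.56 ± 0.15. Surf1, another cytochrome oxidase factor, read 680.0 and 723 with GFP and 645 and 676 with PGC-1α (-0.09, adjusted p = 0.576). Coenzyme Q, the lipid that carries electrons from complexes I and II to III, is made by a set of COQ enzymes. Of these 7 of 12 rose (5 and 0 under spike-in scaling). Coq5, its methyltransferase, read 410.1 and 393 with GFP and 1172 and 1208 with PGC-1α (1.57 ± 0.10) and Coq6, a hydroxylase, rose by 1.35 ± 0.08.

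Iron-sulfur clusters and haem are the metal groups of these complexes, and their genes were counted apart. Of 18 genes of cluster assembly 10 rose and 0 fell (6 and 0 under spike-in scaling). Fdx1, a ferredoxin, which carries electrons, read 403 and 369 with GFP and 3895 and 3953 with PGC-1α and rose by 3.35 ± 0.09 (adjusted p = 0.000633). The scaffold gene Iscu rose by 0.88 ± 0.08, and Isca1, Isca2 and Bola3, which act late in the pathway, by 1.06, 1.14 and 1.24. Of 22 haem genes 4 rose and 1 fell (2 and 0 under spike-in scaling). Alas1, the rate-limiting enzyme outside red cells, read 604 and 547 with GFP and 2045 and 2126 with PGC-1α (1.86 ± 0.09, adjusted p = 0.00186), while Fech, which inserts the iron, read 1552 and 1491 with GFP and 1456 and 1495 with PGC-1α (-0.04, adjusted p = 0.789). The difference between the lists was not tested.

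Of 27 genes of iron itself 5 rose and 2 fell (2 and 0 under spike-in scaling). Tfrc, the transferrin receptor, read 3914 and 4334 with GFP and 7693 and 8000.0 with PGC-1α and rose by 0.93 ± 0.09 (adjusted p = 0.00676). Its other probe sets and the array's 3 control probe sets for the same transcript had means 3.03 to 4.41 times higher with PGC-1α, against 1.90 times for the brightest, and 1 of these 5 passed in a fit of every probe set. Steap2, which reduces iron for uptake, rose by 1.16 ± 0.11, and Hjv, the BMP coreceptor hemojuvelin, fell by 0.89 ± 0.12. Ferritin heavy chain Fth1 and the exporter Slc40a1 had log2 changes of -0.12 and -0.45 that did not pass (adjusted p = 0.431 and 0.0626).

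Genes of the TCA cycle and of fatty acid oxidation were mostly higher with PGC-1α. The TCA cycle with pyruvate dehydrogenase had 14 of 17 genes higher (median 0.85), led by Idh3a, a subunit of isocitrate dehydrogenase, at 1489 and 1599.7 with GFP and 5999 and 5911 with PGC-1α (1.95 ± 0.09). Cs, citrate synthase, read 3249.7 and 3259 with GFP and 8044 and 7936 with PGC-1α (1.30 ± 0.08, adjusted p = 0.00256), and Ogdh, of the oxoglutarate dehydrogenase complex, rose by 1.56 ± 0.12. Fatty acid oxidation had 14 of 21 higher (median 0.91). Acadm, the medium-chain dehydrogenase, read 1857 and 1786 with GFP and 4251 and 4244 with PGC-1α (1.22 ± 0.08, adjusted p = 0.00274), and Slc25a20, the carrier that brings acylcarnitine in, read 363 and 402 with GFP and 767 and 737 with PGC-1α (0.98 ± 0.12). In both genes the groups did not overlap. Acadvl, the very-long-chain dehydrogenase, rose by 1.55 ± 0.10 and Etfdh, which passes the electrons to coenzyme Q, by 1.31 ± 0.08. Under spike-in scaling 10 TCA genes and 11 oxidation genes passed, all higher.

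Lipid genes outside the mitochondrion passed the test less often than the oxidation genes, a difference that was not tested. Of 29 peroxisomal genes 4 rose (2 and 0 under spike-in scaling), led by Phyh, which starts the breakdown of phytanic acid, at 148 and 190.2 with GFP and 1035 and 1048 with PGC-1α (2.63 ± 0.20). The lipase gene Pnpla2 rose by 1.67 ± 0.16, the phosphatidate phosphatase Lpin1 by 2.38 ± 0.15 and the cytosolic carrier Fabp3 by 1.48 ± 0.09, 4 of 32 genes of uptake, droplets and lipolysis being higher and 2 lower (4 and 0 under spike-in scaling). Of 30 genes of fatty acid and cholesterol synthesis 1 rose and 5 fell (0 and 0 under spike-in scaling), among them the elongase Elovl1, which fell by 0.95 ± 0.10, and the sterol enzymes Dhcr7, Cyp51 and Fdft1, which fell by 0.87 ± 0.18, 0.63 ± 0.09 and 0.56 ± 0.09. Fasn, fatty acid synthase, had a log2 change of -0.49 (adjusted p = 0.171).

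Of 21 genes that route pyruvate and lactate 7 rose and 1 fell (4 and 0 under spike-in scaling). Ldhb, the lactate dehydrogenase subunit of oxidative tissue, read 714 and 653 with GFP and 3695 and 4050.4 with PGC-1α and rose by 2.50 ± 0.12 (adjusted p = 0.00168), while Ldha, the glycolytic subunit, read 7121 and 6941 with GFP and 7076 and 7114 with PGC-1α (0.01, adjusted p = 0.946). The lactate importer Slc16a1 rose by 0.77 ± 0.11 and the exporter Slc16a3 fell by 0.53 ± 0.11. Mpc1, a subunit of the mitochondrial pyruvate carrier, rose by 1.44 ± 0.08, and Pdk4, the kinase that switches pyruvate dehydrogenase off, read 341 and 320.2 with GFP and 1526 and 1692 with PGC-1α (2.28 ± 0.10). Among 31 genes of glucose use 7 rose (3 and 0 under spike-in scaling). Hk1, the hexokinase that sits on mitochondria, read 1186 and 1244 with GFP and 3249 and 3498 with PGC-1α (1.47 ± 0.10), whereas Hk2, the insulin-regulated form, had -0.26 and the insulin-responsive transporter Slc2a4 0.67 (adjusted p = 0.18 and 0.0623).

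For ketone use, Bdh1, the enzyme that oxidises β-hydroxybutyrate, read 3.13 and 7.05 with GFP and 479 and 507 with PGC-1α and was called higher (adjusted p = 0.00286), and its other probe set had a log2 change of 2.50 and did not pass. Its GFP values lay under the 21.9 that the absent trp spike-in sets reached at most, so no size is given for the change. Oxct1, which activates ketone bodies, read 3533 and 3596 with GFP and 6792 and 7008 with PGC-1α (0.95 ± 0.08). Got1 and Got2, the transaminases of the malate-aspartate shuttle, rose by 1.68 ± 0.10 and 1.51 ± 0.10, the aspartate-glutamate carrier Slc25a12 by 1.29 ± 0.08, and Kyat1, which converts kynurenine to kynurenic acid, by 1.52 ± 0.18. In this list 10 of 17 genes rose and 1 fell (7 and 0 under spike-in scaling). Of 20 genes that break down branched-chain amino acids 5 rose (3 and 0 under spike-in scaling), among them Mcee (1.45), Hibadh (1.05) and Hibch (1.00), and Bcat2, which takes the first step, had a log2 change of 0.19 (adjusted p = 0.509).

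Of 13 genes of creatine kinases and other energy buffers 4 rose and 3 fell (3 and 1 under spike-in scaling). Ckmt2, the sarcomeric mitochondrial form, read 683 and 622 with GFP and 4904 and 5045 with PGC-1α and rose by 2.93 ± 0.12 (adjusted p = 0.00168). Ckm, the cytosolic muscle form, read 5465 and 4969 with GFP and 3651 and 3709.9 with PGC-1α and fell by 0.50 ± 0.09 (adjusted p = 0.0301), and Ckb, the brain form, rose by 1.06 ± 0.09. Gamt, which makes creatine, and the AMP deaminase Ampd3 fell, by -0.98 and -1.23 on the log2 scale. The adenylate kinases Ak1 and Ak3 rose by 0.58 and 0.94, though for Ak1 the mean over its probe sets was lower with PGC-1α. Of 22 energy-sensing kinases and NAD enzymes 3 rose, Sirt3 among them, and 2 fell (1 and 0 under spike-in scaling).

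**Figure D2:**
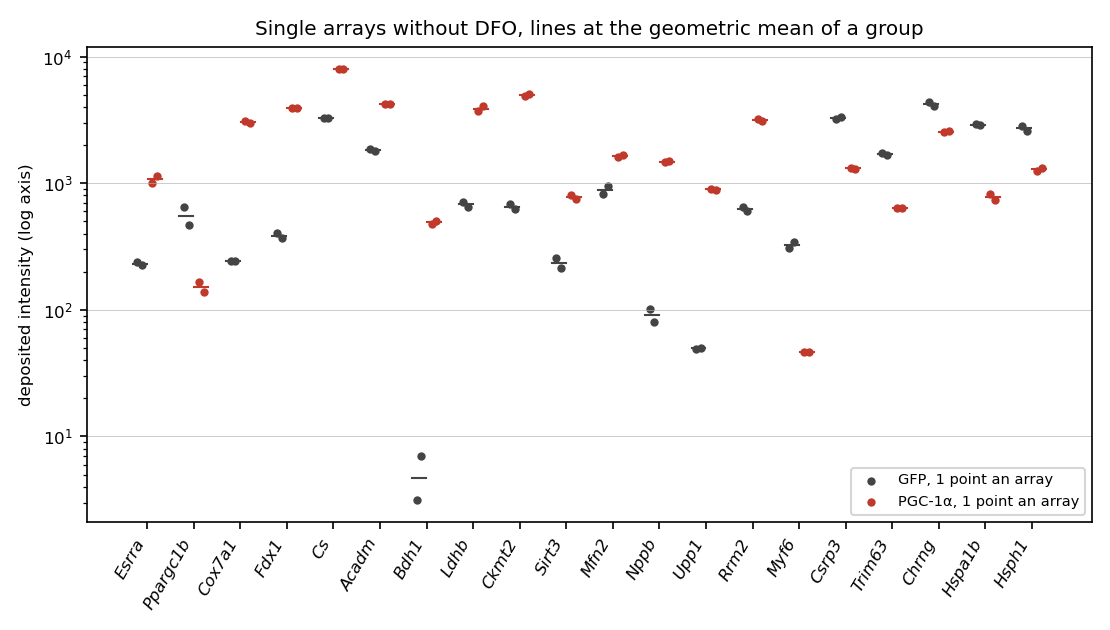
Deposited intensity of 20 genes on a log axis, 1 point an array, GFP dark grey and PGC-1α red, with a line at the geometric mean of each group. The 2 groups do not overlap in any of these genes, which were picked from the text after their values were seen, and Bdh1 has its GFP points at 3.13 and 7.05.

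Nuclear genes for the import and folding of mitochondrial proteins rose in part. Of 36 import genes 17 rose and 2 fell (8 and 0 under spike-in scaling). Timm8a1, a small chaperone of the intermembrane space, read 913 and 1178 with GFP and 2473 and 2608 with PGC-1α (1.29 ± 0.14), Dnajc15, of the import motor, rose by 1.22 ± 0.11, and the receptor gene Tomm20 had a log2 change of 0.06 (adjusted p = 0.757). The folding chaperone gene Hspd1 read 4303 and 4088 with GFP and 5197 and 5065 with PGC-1α (0.29, adjusted p = 0.112), while the proteases Lonp1 and Clpp rose by 0.66 ± 0.10 and 0.71 ± 0.10, 5 of 19 in that list being higher and 1 lower (1 and 0 under spike-in scaling).

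Ribosomal genes were counted by compartment. Of 75 mitochondrial ribosomal genes 40 were higher and 0 lower, with a range of -0.17 to 2.09 and a median of 0.53. Both PGC-1α arrays exceeded both GFP arrays in 67 of them, against 21.9% of all genes, and 24 passed under spike-in scaling. Mrpl47 had the largest change, at 497 and 592 with GFP and 2376 and 2229.5 with PGC-1α (2.09 ± 0.13, adjusted p = 0.00265). Of 43 cytosolic ribosomal genes 0 rose and 1 fell (0 and 0 under spike-in scaling), with a median of -0.15 that was 0.03 under that scaling. The translation factors Gfm1 and Tufm rose by 1.50 ± 0.08 and 1.25 ± 0.10 and the RNA-binding Fastkd1 by 1.75 ± 0.10. In their list 13 of 29 were higher (9 and 0 under spike-in scaling). Of the enzymes that load mitochondrial tRNAs 1 of 16 rose (Yars2, 1.09) and 1 fell (Nars2, from 851 and 821 to 357 and 391, adjusted p = 0.00424; 2 and 0 under spike-in scaling), and of their 19 cytosolic counterparts 1 rose and 3 fell (0 and 0 under spike-in scaling).

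For mitochondrial DNA, 7 of 25 genes rose and 0 fell (3 and 0 under spike-in scaling). Endog, a mitochondrial nuclease, read 196 and 251 with GFP and 888 and 919 with PGC-1α (2.03 ± 0.14), the helicase gene Twnk rose by 1.34 ± 0.27 and Tfam, at 1001 and 1014 with GFP and 1458 and 1548 with PGC-1α, by 0.58 ± 0.08. The polymerase gene Polg had a log2 change of 0.75, and did not pass (adjusted p = 0.0508). Of 23 genes of mitochondrial shape 11 rose and 1 fell, Opa3, of the outer membrane, by 0.90 ± 0.11 at its brightest probe set but not over the mean of its sets (6 and 0 under spike-in scaling). The fusion genes Mfn1, Mfn2 and Opa1 rose by 1.34 ± 0.13, 0.88 ± 0.13 and 0.80 ± 0.10, and the cristae genes Apoo and Chchd3 by 1.21 and 1.18. Mtfp1, an inner membrane gene named for fission, read 221 and 194 with GFP and 975 and 966 with PGC-1α (2.23 ± 0.11). Dnm1l, also a fission gene, read 1660.2 and 1511 with GFP and 1800.0 and 1699 with PGC-1α (0.14, adjusted p = 0.474).

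Genes of inner membrane carriers rose in 13 of 39 and fell in 2 (6 and 0 under spike-in scaling), the latter being Slc25a16 and Slc25a24, which fell by 0.86 ± 0.16 and 0.61 ± 0.09. Slc25a11, which carries oxoglutarate, rose by 1.14 ± 0.09, and the adenine nucleotide carrier Slc25a4, one of the brightest at 5865 and 5726 with GFP and 8959 and 9089.8 with PGC-1α, by 0.64 ± 0.07. Of 10 genes of mitochondrial calcium 4 rose and 1 fell (2 and 0 under spike-in scaling). Letm1 rose by 1.57 ± 0.10, Mcur1 by 1.03 ± 0.10 and the outer membrane channel Vdac1 by 0.71 ± 0.08, while the uniporter pore gene Mcu had a log2 change of -0.22 (adjusted p = 0.429) and its regulator Micu2 fell by 0.48 ± 0.08. Genes of autophagy and mitophagy, the removal route, had 1 rise (Atg4d, 1.09) and 0 falls among 28, and Pink1 had a log2 change of -0.29 (adjusted p = 0.255).

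**Figure D3:**
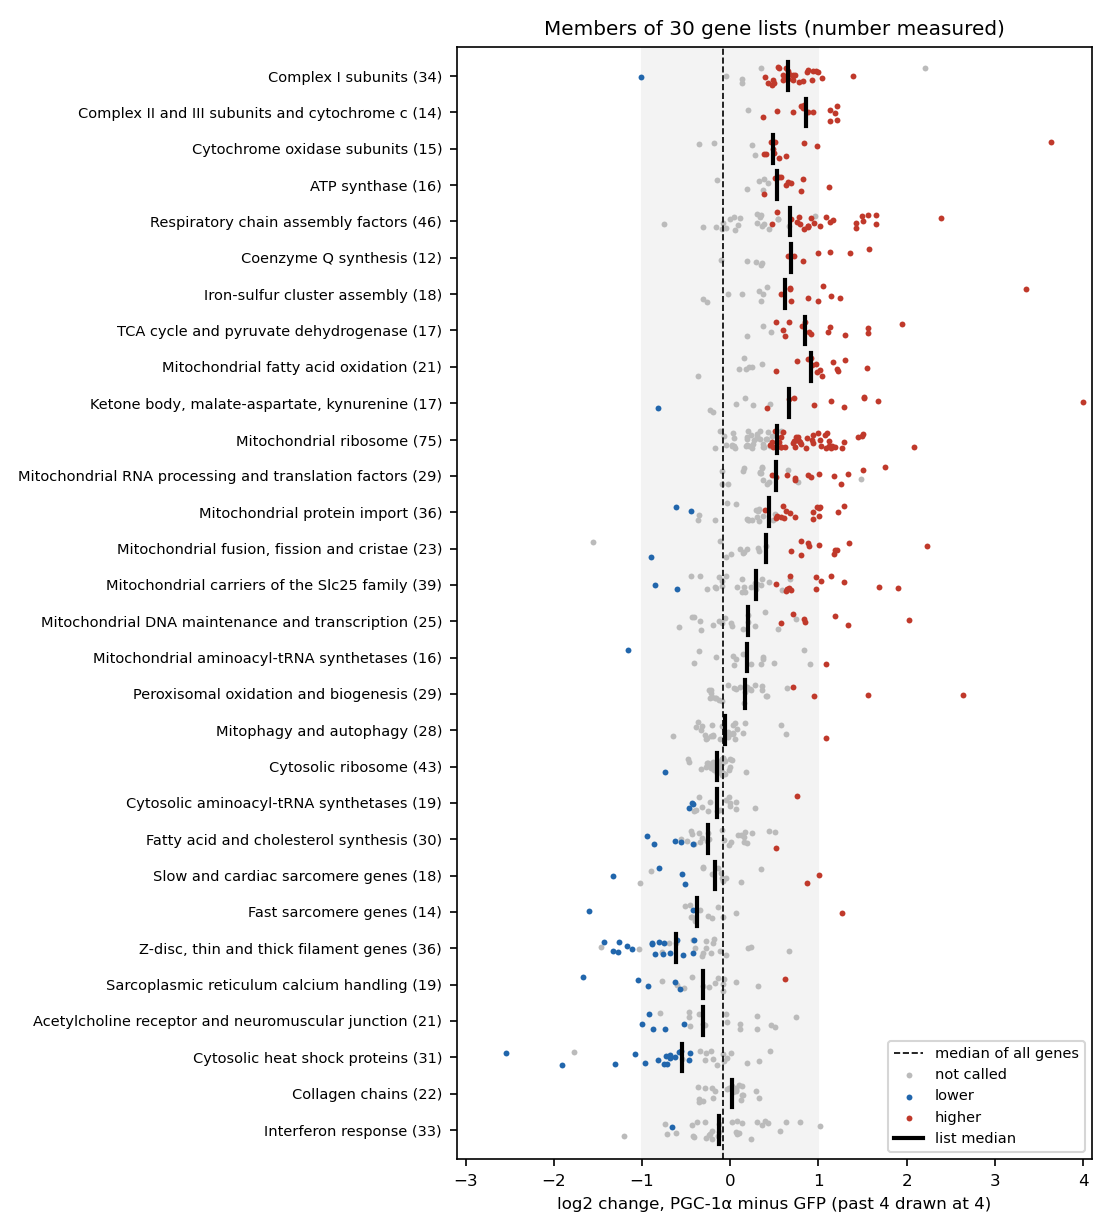
Log2 change with PGC-1α of each measured member of 30 gene lists, red where limma called it higher, blue lower and grey not called, with a bar at the list median and a dashed line at the median of all genes (-0.08). The lists of respiratory, TCA and ribosomal genes of the mitochondrion lie right of the line and the shaded band spans changes under 2-fold, while the Z-disc and filament list (median -0.61) and the heat shock list (-0.55) lie left of it.

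Genes against oxygen radicals were counted over both compartments. Sod2, the mitochondrial superoxide dismutase, read 1850.3 and 1803 with GFP and 5652 and 5725 with PGC-1α (1.64 ± 0.08, adjusted p = 0.00168), and Prdx3, a mitochondrial peroxiredoxin, rose by 0.98 ± 0.08. Sod1, the cytosolic dismutase, fell by 0.66 ± 0.11. Gsr, glutathione reductase, read 421 and 397 with GFP and 217 and 220.3 with PGC-1α and fell by 0.90 ± 0.08, and catalase, Cat, had a log2 change of -0.33 (adjusted p = 0.134). In all 6 of 25 genes of this kind rose and 2 fell (3 and 0 under spike-in scaling). Sirt3 read 258 and 216 with GFP and 811 and 754 with PGC-1α (1.73 ± 0.13, adjusted p = 0.00405). Of 13 genes known from brown fat 5 rose, 0 fell and 8 did not pass. Cox7a1, Letmd1, Fabp3, Pank1 and Cox8b rose, by 3.64, 1.68, 1.48, 1.28 and 0.98. Cidea, a lipid droplet protein of brown fat, read 24.7 and 5.69 with GFP and 84.4 and 93.9 with PGC-1α and did not pass (adjusted p = 0.0567), nor did Dio2, which activates thyroid hormone, at 664 and 686 with GFP and 448 and 474 with PGC-1α (adjusted p = 0.312). Ucp1, the uncoupling protein that defines that tissue, read 12.8 and 31.2 with GFP and 21.1 and 28.5 with PGC-1α, with overlapping groups well under the median level of all genes, given above.

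Genes of the Z-disc and filaments were lower with PGC-1α where they passed the test. Of 36 measured 17 fell and 0 rose, with a median of -0.61 (-0.43 under spike-in scaling, where 2 fell). Csrp3, a Z-disc LIM protein, read 3239 and 3319 with GFP and 1322 and 1297 with PGC-1α and fell by 1.32 ± 0.08 (adjusted p = 0.00256). Myom1, of the M-band, and Unc45b, the myosin chaperone, fell by 1.26 ± 0.13 and 1.43 ± 0.23. Myh3, embryonic myosin, read 5564 and 5143 with GFP and 2423 and 2524 with PGC-1α and fell by 1.11 ± 0.20 (adjusted p = 0.0319), while perinatal myosin, Myh8, fell by 0.75 ± 0.15 and titin, Ttn, by 0.54 ± 0.11. Of the myotube markers 4 fell with PGC-1α, and they were Myh3, Myh8, Ttn and Ckm (0 and 0 under spike-in scaling). Actn2, α-actinin, read 689.5 and 744 with GFP and 821 and 863 with PGC-1α (0.23, adjusted p = 0.282).

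Slow and fast fibre genes were counted apart. Of 18 slow and cardiac genes 2 rose and 4 fell (0 and 1 under spike-in scaling), and of 14 fast genes 1 rose and 2 fell (1 and 1 under spike-in scaling). The cardiac troponin gene Tnni3, whose rise is given above, was not in the slow and cardiac list, where the largest rise was 1.01. The slow tropomyosin Tpm3 read 3589.9 and 3311 with GFP and 6079.9 and 6549.8 with PGC-1α (0.87 ± 0.10) and phospholamban, Pln, rose by 1.01 ± 0.15, but slow troponin I, Tnni1, had -0.09 and slow myosin, Myh7, -0.90 (adjusted p = 0.521 and 0.061). Among fast genes Mybpc2, fast myosin-binding protein C, read 752 and 729 with GFP and 238 and 249.5 with PGC-1α and fell by 1.60 ± 0.14, while parvalbumin, Pvalb, rose by 1.27 ± 0.17.

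Some genes of calcium release and of the neuromuscular junction fell. Of 19 genes of the sarcoplasmic reticulum 1 rose and 5 fell (0 and 1 under spike-in scaling), among them Cacna1s, the voltage sensor, at 781 and 914 with GFP and 380.2 and 440.1 with PGC-1α, which fell by 1.05 ± 0.15, and its partner Stac3, which fell by 1.67 ± 0.18. Of 21 junction genes 0 rose and 5 fell (0 and 0 under spike-in scaling). Chrng, the fetal subunit of the acetylcholine receptor, read 4391 and 4106 with GFP and 2521 and 2569 with PGC-1α and fell by 0.74 ± 0.09 (adjusted p = 0.0127), the delta subunit Chrnd fell by 0.87 ± 0.10, and the alpha subunit Chrna1 had a log2 change of -0.28 (adjusted p = 0.0989).

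Of 21 myogenic regulators 1 rose and 2 fell (1 and 1 under spike-in scaling). Myog read 5223 and 5330.2 with GFP and 5296 and 5245 with PGC-1α (0.00, adjusted p = 0.997) and Myod1 1310.1 and 1366 with GFP and 1081 and 1098 with PGC-1α (-0.30, adjusted p = 0.286). Myf6, the late factor MRF4, read 306 and 342 with GFP and 46.3 and 46.0 with PGC-1α and fell by 2.81 ± 0.28 (adjusted p = 0.00703), Mef2c fell by 0.63 ± 0.12, and Id2, which blocks such factors by dimerising with their partners, read 144 and 117 with GFP and 608 and 531 with PGC-1α and rose by 2.13 ± 0.15 (adjusted p = 0.0034). Atrophy ligases and FoxO factors had 1 rise and 1 fall among 23 genes, 4.35% each (1 and 1 under spike-in scaling). The fall was in Trim63, the atrophy ligase MuRF1, which read 1732 and 1661 with GFP and 635 and 639.8 with PGC-1α and fell by 1.41 ± 0.19 (adjusted p = 0.0159). The atrophy ligase Fbxo32 had a log2 change of -0.43 (adjusted p = 0.0819).

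Cytosolic heat shock genes, chaperones induced when proteins misfold, were lower with PGC-1α where they passed. Of 31 measured 16 fell and 0 rose (median -0.55, and -0.37 with 2 falls under spike-in scaling). Hspa1b, an inducible Hsp70, read 2925 and 2882 with GFP and 815 and 732 with PGC-1α and fell by 1.91 ± 0.09 (adjusted p = 0.00168). Its near-identical copy Hspa1a read 347 and 394 with GFP and 48.0 and 83.6 with PGC-1α and fell by 2.54 ± 0.32, and probes may not tell the pair apart. Hsph1, a cochaperone of Hsp70, read 2833 and 2601 with GFP and 1244 and 1328 with PGC-1α and fell by 1.08 ± 0.12, and the small heat shock gene Hspb3 fell by 1.30 ± 0.24. Of 22 stress genes of the endoplasmic reticulum 3 rose and 3 fell (0 and 0 under spike-in scaling). Ddit3, the factor CHOP, rose by 0.66 ± 0.08, Pdia6 fell by 0.77 ± 0.08, and the chaperone Hspa5 had a log2 change of -0.04 (adjusted p = 0.797).

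Of 24 secreted factors 2 rose (1 and 0 under spike-in scaling), Nppb and Metrnl, a secreted relative of meteorin (0.64, with a mean over its probe sets that was lower). Fndc5, the precursor of irisin, had a log2 change of 0.47 (adjusted p = 0.197). Vegfa read 932 and 1019 with GFP and 1615 and 1619 with PGC-1α (0.73 ± 0.09, adjusted p = 0.012) and Vegfb 197 and 191 with GFP and 446 and 584 with PGC-1α (1.39 ± 0.17), the 2 of 14 angiogenic factors that rose (1 and 0 under spike-in scaling). Of 25 targets of the hypoxia-inducible factors 4 rose and 3 fell (0 and 0 under spike-in scaling), Egln3, a prolyl hydroxylase, by 0.99 ± 0.09.

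Genes of nucleotides and of DNA copying included large changes in single members. Rrm2, the ribonucleotide reductase subunit of dividing cells, read 653 and 598 with GFP and 3229 and 3112 with PGC-1α and rose by 2.34 ± 0.09 (adjusted p = 0.00168), and Gmnn, geminin, an inhibitor of replication licensing, read 25.7 and 59.5 with GFP and 448 and 466 with PGC-1α (3.55 ± 0.38). The GFP values of Gmnn lay under the median level of 125 intensity units, which the gene passed through other arrays, so the size of its rise is uncertain. Mcm6, of the replicative helicase, read 744 and 729 with GFP and 233 and 256 with PGC-1α and fell by 1.59 ± 0.16, Pcna fell by 0.62 ± 0.08, and the mitotic kinase Cdk1, of another list, by 1.02 ± 0.10. Of the replication genes 5 of 36 rose and 5 fell (3 and 1 under spike-in scaling), and of 35 cyclin and mitosis genes 1 and 2 (1 and 0 under spike-in scaling). In pyrimidine metabolism Upp1 and Cda rose by 4.17 and 1.05, while Cad, which starts pyrimidine synthesis, fell by 1.40 ± 0.19 at its brightest probe set, while the log2 changes of its 3 sets ran from -1.40 to 1.89.

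None of the fibroblast, adipocyte or osteoblast markers passed limma's test between the groups (unadjusted p under 0.05 in 0, 0 and 2), and their median log2 changes were -0.05, 0.18 and -0.35 (0.13, 0.36 and -0.17 under spike-in scaling). Of the myoblast and reserve cell markers 1 rose, Sdc4, a heparan sulfate carrier, by 1.12 ± 0.16.

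Of 22 collagen chains 0 rose and 0 fell by limma, with 3 at an unadjusted p under 0.05. Of 34 matrix genes 0 rose and 1 fell. Rises and falls numbered 0 and 1 of 33 interferon-response genes and 0 and 1 of 25 amino acid transporters. In each of these lists they were 0 and 0 under spike-in scaling. They numbered 0 and 2 of 24 ATF4 targets (0 and 0 under spike-in scaling), and 2 and 0 of 22 Notch and progenitor genes. Among 26 chemokine and acute-phase genes Lcn2 and Ptx3 rose, by 1.63 ± 0.08 and 1.19 ± 0.16, and of the NF-κB genes its inhibitor Nfkbia, at 1117 and 1165 with GFP and 3037 and 3075 with PGC-1α, by 1.42 ± 0.08. Fos, an immediate early factor, read 168 and 176 with GFP and 639.9 and 655 with PGC-1α (1.92 ± 0.09, adjusted p = 0.00168), while Jun had a log2 change of -0.09 (adjusted p = 0.516). Fos was the only rise among 22 AP-1 and immediate early genes, of which 1 fell (1 and 0 under spike-in scaling). Of 20 clock genes 3 rose and 1 fell (0 and 0 under spike-in scaling), Nr1d1 and Per1 for example, from 150.3 and 152 to 262 and 293 and from 179 and 202 to 107 and 96.0.

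Some of the largest falls differed between probe sets of the gene. Setd5, a chromatin protein, read 955 and 801 with GFP and 124 and 122 with PGC-1α and fell by 2.83 ± 0.11 (adjusted p = 0.00168), but the log2 changes of its 3 probe sets ran from -2.83 to 0.57. Those of Nmd3, an export adaptor of ribosomes, ran from -2.44 to 0.41, and those of Reep1, of the endoplasmic reticulum, from -1.95 to 0.78, both ends passing the test. Slc44a2, a choline transporter, read 2818 and 2461 with GFP and 765 and 792 with PGC-1α and had all 3 probe sets lower, from -1.76 to -0.43, and Tceal7 read 5127 and 5038 with GFP and 1533 and 1463 with PGC-1α on its only one. In all 3 of the 1770 called genes had another probe set called with the opposite sign.

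The change with PGC-1α was then set beside the same change under DFO, measured on the other 4 arrays. Of the 902 genes called higher, 788 (87.4%) also had both PGC-1α arrays above both GFP arrays under DFO, against 25.3% of all genes. Of the 868 called lower, 719 (82.8%) lay below in both, against 34.5%. The calls used the spread of the arrays with DFO too. Of the genes called higher 84.8%, and of those called lower 80.1%, were above the median level. Both can favour arrays that do not overlap, so these shares are no independent check of the calls. The test of the difference itself, limma's interaction, called 101 genes (0.555%), 42 with a higher change under DFO (0.231%) and 59 with a lower one (0.324%). Of these, 44 were also called without DFO. With spike-in scaling the interaction called 3 genes and with a replicate block 3. The interaction count was 77 without PGC-1α + DFO replicate 1, 0 without GFP + DFO replicate 1 (2089 at an unadjusted p under 0.05), and 1 to 18 without any other single array.

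Among the genes called, some rises were smaller with DFO. Rgcc, a regulator of the cell cycle, rose by 2.82 ± 0.13 without DFO and had both PGC-1α arrays below both GFP arrays with it, an interaction of -3.82 (adjusted p = 0.0104). Spsb4, a ubiquitin ligase adaptor, went from 3.76 ± 0.22 to 0.71 ± 0.22 (0.0443), Fos from 1.92 ± 0.09 to 0.21 ± 0.09 (0.0251) and Ckmt2 from 2.93 ± 0.12 to 1.48 ± 0.12 (0.05). Mtfp1 and Oxct1 went further up under DFO, to 3.78 ± 0.11 and 1.91 ± 0.08 (0.0398 and 0.05).

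Muscle genes and chemokines were also among the genes called. The Z-disc gene Pdlim3 fell by 1.27 ± 0.08 without DFO and had -4.04 ± 0.08 under it (interaction adjusted p = 0.00937), Trdn, triadin of the calcium release unit, -0.62 and -2.68 ± 0.09 (0.0235), and Chrng -0.74 and -2.58 ± 0.09 (0.0251). Cox6a2 and Myl2, slow and cardiac myosin light chain, had -0.18 and 0.12 without DFO and 1.08 ± 0.08 and 1.73 ± 0.10 under it (0.0373 and 0.0366). The chemokine gene Cxcl1 had 0.23 and 4.65 ± 0.08 (0.00186), 1 of 7 chemokine and acute-phase genes so called. The beta-actin ratio, given above, was lower on the arrays with DFO, and its part in these differences was not tested.

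**Figure D4:**
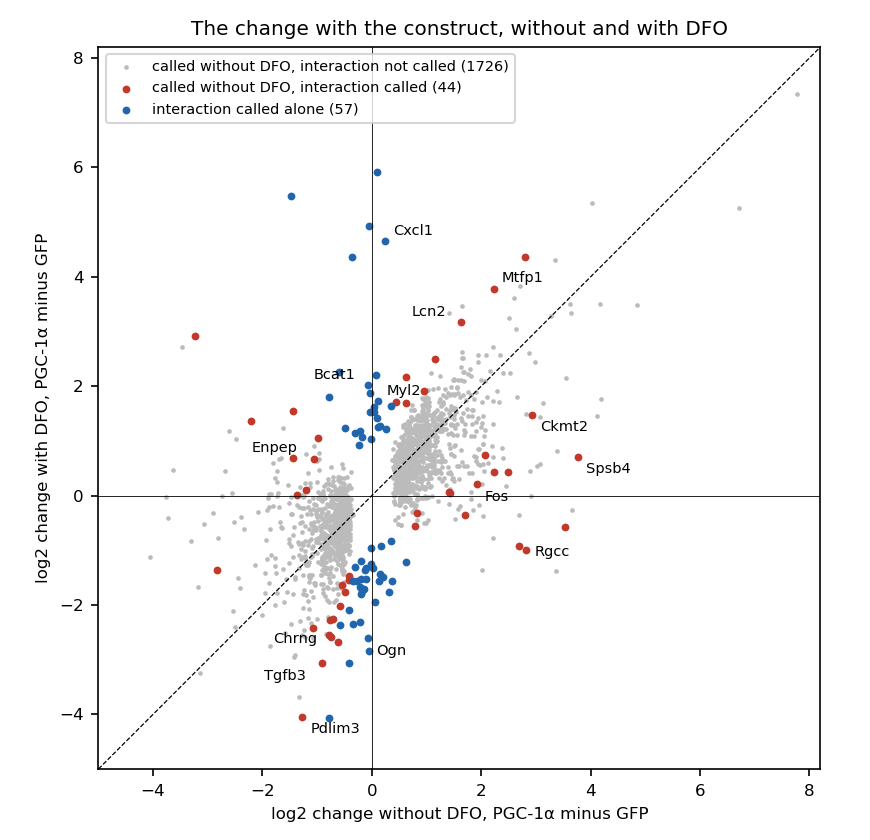
Log2 change with PGC-1α without DFO (x axis) and with DFO (y axis) for genes called without DFO or in the interaction, with the line of equal change dashed and grey points for genes called without DFO alone. Red points are the 44 genes called both without DFO and in the interaction, such as Spsb4 at 3.76 and 0.71, and blue points those called in the interaction and not without DFO, such as Cxcl1 at 0.23 and 4.65.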

How the data were processed

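RNA from 8 C2C12 cultures was read on 1-colour Affymetrix mouse arrays. The authors deposited 1 linear intensity per probe set and array, and the summarisation, background correction and scaling are not given in the sources used here. Groups were taken from the labels. Probe sets with 1 gene symbol in GEO's platform annotation numbered 34945 of 45101, 932 had several and were not named, 9160 had none, and 64 were controls. Each gene was read by its probe set of highest mean log2 intensity, without further normalisation.

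Group means were fitted over all 8 arrays with limma 3.58.1 in R 4.3.3, so that they share 1 estimate of spread, and p-values were adjusted over 18193 genes by the Benjamini-Hochberg method and called at 0.05. An exact permutation test of 2 arrays against 2 cannot go below 0.333. The ± values are SEs of the fit, and arrays have no counts, so their number limits the precision. The steps were tested on simulated data. Figures were drawn with matplotlib 3.10.9.

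Genes could be named from the 15 largest called rises and falls above the median level, the fixed anchors and up to 4 largest called members of each of 65 lists, the 6 largest interactions a side and the targeted gene. Those printed are a part of these, picked for their known roles with their values in view. Sod1, Gabpa, Nrf1, Ppara, Ak1, Ak3, Micu2, Dio2, Slc16a1, Slc16a3, Slc25a16, Slc25a24, Opa3 and genes with wide gaps between replicates lie outside this rule for the place they are named in, and were chosen after their values were seen. The comparison, its lists and members were chosen with earlier results of these data known. Alternatives were other scalings (quantile, median, 24 poly-A spike-in probe sets without the trp sets, which read 21.9 at most), probe-set choices, filters, a floor, limma's trend and robust options, a replicate block, the 4 arrays alone and leaving out each array.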

Additional observations from a re-analysis of the deposited data

Results flagged for a closer look

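The change with PGC-1α differed with DFO in 101 genes by limma's interaction test. Among the genes named, the change was lower with DFO by -3.82 on the log2 scale for Rgcc, -3.05 for Spsb4, -2.77 for Pdlim3, -2.05 for Trdn, -1.84 for Chrng, -1.70 for Fos and -1.46 for Ckmt2. It was higher with DFO by 4.42 for Cxcl1, 1.61 for Myl2, 1.56 for both Mtfp1 and Nefm, 1.54 for Lcn2, 1.46 for Setd5, 1.26 for Cox6a2 and 0.95 for Oxct1. No group had enough arrays for a test of a single array against its group.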

How the results depend on the processing

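Of 197 genes named, 161 were called, and 155 of these kept their sign under every alternative run. Of the 161, 63 were also called with the same sign under every alternative other than the 4-array fit and the replicate block. The exceptions in sign were Ak1 (-0.63), Atp5g1 (-0.20), Cad (0.11), Opa3 (0.0573) and Metrnl (-0.24) when all probe sets of a gene were averaged, and Reep1 (0.78) when sets ending in _x_at or _s_at were left out, where another set of the gene is read.

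The 1770 called genes became 508 scaled to spike-ins, 940 with the mean of probe sets, 3524 among genes above the median level, 3746 with limma's trend and robust options, 543 at 2-fold or more, and 0 (4531 unadjusted) with the 4 arrays alone, where limma has fewer arrays to estimate the spread. Spike-in scaling kept 504 of the 1770 with the same sign. Leaving out 1 array gave 304 to 2094. The 101 interaction genes became 216 with quantile normalisation, 3 scaled to spike-ins, 4 with the mean of probe sets, 58 without _x_at and _s_at sets, 1316 above the median level, 450 with the floor, 1467 with trend and robust options and 0 to 77 without 1 array. The causes were not tested.

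Replicate numbers are shared between groups. Deviations of same-numbered arrays of 2 groups correlated at -0.0247 to 0.0322 over all genes and at -0.11 to 0.221 over genes above the median level, the last for the 2 groups with DFO. Not every pair of groups passed 0.1, so the numbers were not taken as pairs. With the replicate block 1060 genes were called for the construct and 3 for the interaction. Signal limits the dim genes, where the median SD between arrays was 0.289 with GFP and 0.306 with PGC-1α on the log2 scale.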

Other observations

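Some bright genes had 1 array far from its replicate. Among 9096 genes above the median level, the 2 arrays of a group differed by at least 4-fold in 1 gene with GFP and in 4 with PGC-1α. Ndufa8, a complex I subunit, read 1606 and 1622 with GFP and 16346 and 3419.8 with PGC-1α, the first of these being the highest value on its array. It is 1 of the complex I genes that did not pass limma's test. Ttc17 read 569 and 620.0 with GFP and 466 and 15284 with PGC-1α, and Pld2, a phospholipase, 439.8 and 389 with GFP and 8846 and 281 with PGC-1α. Ubqln1, which escorts proteins to the proteasome, read 6504 and 1421 with PGC-1α. St6galnac5, a sialyltransferase, read 40.4 and 168 with GFP. These genes enter no comparison above as results, apart from the counts of their lists.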
